A study of Mus musculus with 2 samples.

Results

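Trithorax group proteins, some chromatin remodellers among them, keep genes active and genetically oppose Polycomb repression, the system to which Bmi1 belongs, whereas other remodellers act in repression. The KMT2 enzymes methylate histone H3 at promoters and enhancers, whereas the SWI/SNF and CHD remodellers use ATP to slide or evict nucleosomes. Among the latter, CHD7 is the protein whose loss causes CHARGE syndrome, in which the inner ear is malformed. Chromatin accessibility was described here at 9 genes of these families, chosen by name out of 21938 protein-coding genes of GENCODE vM21: the methyltransferase genes *Kmt2a*, *Kmt2b*, *Kmt2c* and *Kmt2d*, the CHD genes *Chd7* and *Chd4*, and the SWI/SNF genes *Smarca4*, *Smarcb1* and *Arid1a*. A peak was assigned to a gene when its centre lay within 3 kb of any of its transcription start sites (TSSs), in the gene body or up to 10 kb upstream.

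Organs of Corti (OCs) of neonatal mice at P2 were used for ATAC-seq, in which a transposase cuts accessible DNA. One group was WT and the other *Bmi1*-/-, carrying the Bmi1tm1Brn allele on both chromosomes, on a C57BL/6J background with littermates as controls. OCs of several mice were pooled into 1 library per genotype, so no spread between animals could be measured and no test between genotypes was possible. Inside the deposited lists, every peak name of the sample labelled WT carries the prefix bko and every peak name of the sample labelled Bmi1 KO the prefix bwt, so libraries are called by their sample labels throughout. *Bmi1* itself had 2 peaks labelled WT and 5 labelled *Bmi1*-/-. Its strongest promoter peak reached 17 and 29 reads, respectively, and because the deleted segment was not given in the sources used here, these peaks do not check the labels.

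Each list holds the position, fold enrichment, −log10 p and −log10 q of its peaks. Of the peaks on assembled chromosomes, 77596 were labelled WT and 100431 labelled *Bmi1*-/-. The lists give no read totals, so the pileup (reads covering the summit) and the local background were solved from fold enrichment and −log10 p. With the label WT the background most often seen was 6.32 reads, and with the label *Bmi1*-/- it was 8.04 reads, a ratio of 1.27. Peak strength is given as the percentile of −log10 p within its own list, where 100 is the strongest. Intervals are 95% intervals and cover counting error only.

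All 9 genes had peaks in both libraries, and these numbered 56 with the label WT and 68 with the label *Bmi1*-/-. The ratio of 1.21 (exact conditional interval 0.840 to 1.76) lay below the ratio of all peaks, 1.29, which its interval included, and it was 0.982 when both lists were taken at equal length. Peak number was higher with the label *Bmi1*-/- at 5 genes, lower at 3 and equal at *Smarca4*. Of all protein-coding genes with peaks in both lists, 50% had more with the label *Bmi1*-/-, 25.7% fewer and 24.3% as many. *Arid1a* differed most in number, with 3 peaks labelled WT and 12 labelled *Bmi1*-/-, and *Smarcb1* had 1 and 4. *Kmt2b* went the other way with 5 and 3, as did *Chd4* with 8 and 6 and *Kmt2d* with 6 and 5. The median gene had 7.96 and 10.1 peaks per 100 kb of its region, beside medians of 5.15 and 6.63 over all protein-coding genes.

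Few of these peaks were shared. An overlap of at least 1 bp with the other list was found for 17 of 56 peaks labelled WT (30.4%, exact binomial interval 18.8% to 44.1%) and for 15 of 68 peaks labelled *Bmi1*-/- (22.1%, 12.9% to 33.8%). In the regions of all protein-coding genes the shares were 28.9% and 21.9%, so the genes were close to the background. With a reciprocal overlap of 50% the shares fell to 12.5% and 10.3%, and those in all protein-coding genes to 15% and 11.9%. Within 3 kb of a TSS, 11 of 24 peaks labelled WT and 10 of 31 labelled *Bmi1*-/- overlapped, against 48.8% and 36.6% of all promoter peaks of protein-coding genes. Outside promoters 6 of 32 and 5 of 37 did, against 15.4% and 12.1%. A q-value under 0.05 was reached by 26 of 56 peaks labelled WT (46.4%, against 52.4% of all peaks) and by 44 of 68 labelled *Bmi1*-/- (64.7%, against 62.8%). A −log10 q of at least 5 was reached by 1 and 4, against 1.63% and 4.23% of all peaks.

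A promoter peak was present for 9 of 9 genes in both lists, against 59.1% of protein-coding genes labelled WT and 68.2% labelled *Bmi1*-/-. These genes have many annotated starts, a median of 6 against 3 over all protein-coding genes, and each start opens a further window for a promoter peak. The strongest promoter peak ranked higher in its list with the label *Bmi1*-/- at 7 of 9 genes, against 68.6% of all protein-coding genes that had one in at least 1 list. Its median percentile was 61.4 with the label WT and 94.96 with the label *Bmi1*-/-, while over every gene that had one the medians were 76.8 and 87.3. The exceptions, *Kmt2c* and *Chd7*, were the 2 genes with the highest percentiles in the list labelled WT.

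After division by the commonest background of its library, the summit pileup at the strongest promoter peak was higher with the label *Bmi1*-/- at 8 of 9 genes, against 60.3% of all protein-coding genes with one in both. At *Smarcb1* it exceeded 1 by less than 1%, and *Chd7* alone fell below 1. The median ratio was 1.18 (range 0.873 to 2.22), and over all those genes it was 1.06 (quartiles 0.917 and 1.22). The 2 strongest peaks overlapped at 3 of 9 genes, against 55.3% of all those genes, and at the other 6 the ratio compares different places. The summits of the 3 overlapping pairs lay 79 to 604 bp apart, and the summit labelled *Bmi1*-/- fell within the compared peak labelled WT at *Kmt2a* alone. When each pileup was divided by its own local background, which was higher with the label *Bmi1*-/- at every one of these genes, 4 of 9 ratios exceeded 1, against 51.7%, and the median was 0.994, against 1.01 over all those genes. The counting interval of the ratio lay above 1 at *Kmt2a* and *Smarca4*, 2 of 9 against 1.4% of all those genes, below 1 at 0 against 0.164%, and included 1 at the other 7.

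**Figure D1:**
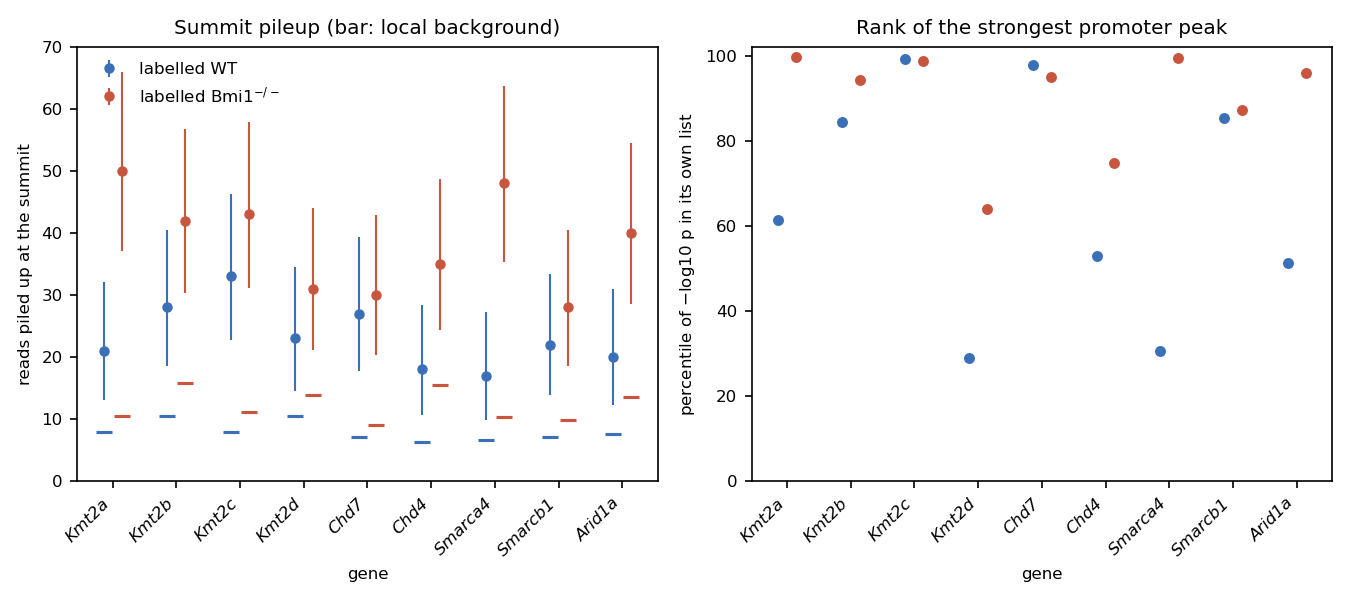
Strongest promoter peak of each gene in the 2 lists. Left, reads piled up at the summit with exact Poisson 95% intervals (counting error only), with a short bar at the local background; right, percentile of −log10 p within the own list. *Kmt2a* and *Smarca4* have 21 and 17 reads labelled WT and 50 and 48 labelled *Bmi1*-/-, with the *Smarca4* summits 409 bp apart.

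Of the methyltransferase genes, *Kmt2a* (MLL1), the enzyme that maintains Hox gene activity, had the strongest peak of all 9 genes. With the label WT the peak at its 5′ end, chr9:44881241-44881552, held 21 reads over a background of 7.96 (fold 2.46, 61.4th percentile). With the label *Bmi1*-/-, chr9:44881218-44881875 held 50 reads over 10.5 (fold 4.44, −log10 q 14.0, 99.6th percentile). The overlapping summits were 79 bp apart and the ratio per library background was 1.87 (interval 1.10 to 3.28), or 1.81 per local background. Near the *Kmt2a* start further weak peaks lay downstream with the label WT and on both sides with the label *Bmi1*-/-. The antisense gene AC061963.1 starts within 182 bp of the centre of the stronger peak, so that accessibility cannot be assigned to either gene. Outside the promoter no *Kmt2a* peak was shared. The strongest of those labelled WT was chr9:44889190-44889425, about 8 kb upstream (70.8th percentile), and of those labelled *Bmi1*-/- chr9:44863823-44864099 in intron 1 (44.0th).

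*Kmt2c*, which with *Kmt2d* places monomethylation at enhancers, had the strongest promoter peak of the genes in the list labelled WT. That peak, chr5:25498479-25499156, held 33 reads over 7.98 (−log10 q 6.76, 99.2nd percentile), and a second one, chr5:25499326-25500085, held 22. In the list labelled *Bmi1*-/- a single peak of 1773 bp, chr5:25498141-25499913, reached into both, with 43 reads over 11.1 (−log10 q 8.95, 98.7th percentile). The ratio of the strongest peaks per library background was 1.02 (0.636 to 1.66), but their summits were 604 bp apart and the one labelled *Bmi1*-/- lay within the second peak labelled WT, 93 bp from its summit. Taken against that peak, an alternative added once the data had been seen, the ratio was 1.54 (0.899 to 2.70), and both intervals included 1. The long noncoding RNA gene 4831440E17Rik starts 40 bp from the centre of the wide peak. Along the 227 kb of the gene no peak outside the promoter was shared. The strongest peaks without overlap were chr5:25497717-25497988 in intron 1 labelled WT (77.3rd percentile) and chr5:25399765-25399964 in intron 6 labelled *Bmi1*-/- (69.3rd).

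At *Kmt2d* the lists differed in place. With the label WT no peak lay within 1 kb of the start of the coding transcript, and the nearest, chr15:98869585-98869909 in intron 1, was 1295 bp away with 21 reads (15.8th percentile). With the label *Bmi1*-/-, chr15:98871310-98872191 lay 106 bp upstream of that start with 30 reads over 13.9 (52.0th percentile). The strongest promoter peaks were both near starts inside the gene, chr15:98857500-98857885 in intron 17 labelled WT (23 reads, 28.9th) and chr15:98849929-98850238 in exon 35 labelled *Bmi1*-/- (31 reads, 64.0th). Outside promoters the strongest peak labelled WT was chr15:98852216-98852508 in exon 32 (85.5th percentile). The 1 shared peak, chr15:98880978-98881268, lay 33 bp from the start of *Rhebl1* and belongs to that promoter by position. *Gm49437* and 5730414N17Rik also start within 3 kb of *Kmt2d* promoter peaks.

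*Kmt2b*, the paralogue of *Kmt2a* that methylates promoters, had overlapping peaks just upstream of its start in both lists. These were chr7:30588818-30589390 labelled WT, with 29 reads over 12.3 (66.7th percentile), and chr7:30588757-30589260 labelled *Bmi1*-/-, with 42 reads over 15.9 (94.3rd percentile). A stronger peak labelled WT, chr7:30583216-30583428, lay in exon 8 near another annotated start (28 reads, 84.4th percentile) and had no overlap. The strongest peak without overlap labelled *Bmi1*-/- was chr7:30590991-30591310, upstream of the gene (66.01st). *Mir3569* and *Zbtb32* start within 3 kb of these promoter peaks. All 4 methyltransferase genes had a peak near the 5′ end with the label *Bmi1*-/-, 3 of them overlapped by one labelled WT. Of all protein-coding genes with a consensus coding transcript, 58.7% had a peak so labelled within 1 kb of the start of one. Of all promoter peaks labelled *Bmi1*-/-, 36.6% overlapped.

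**Figure D2:**
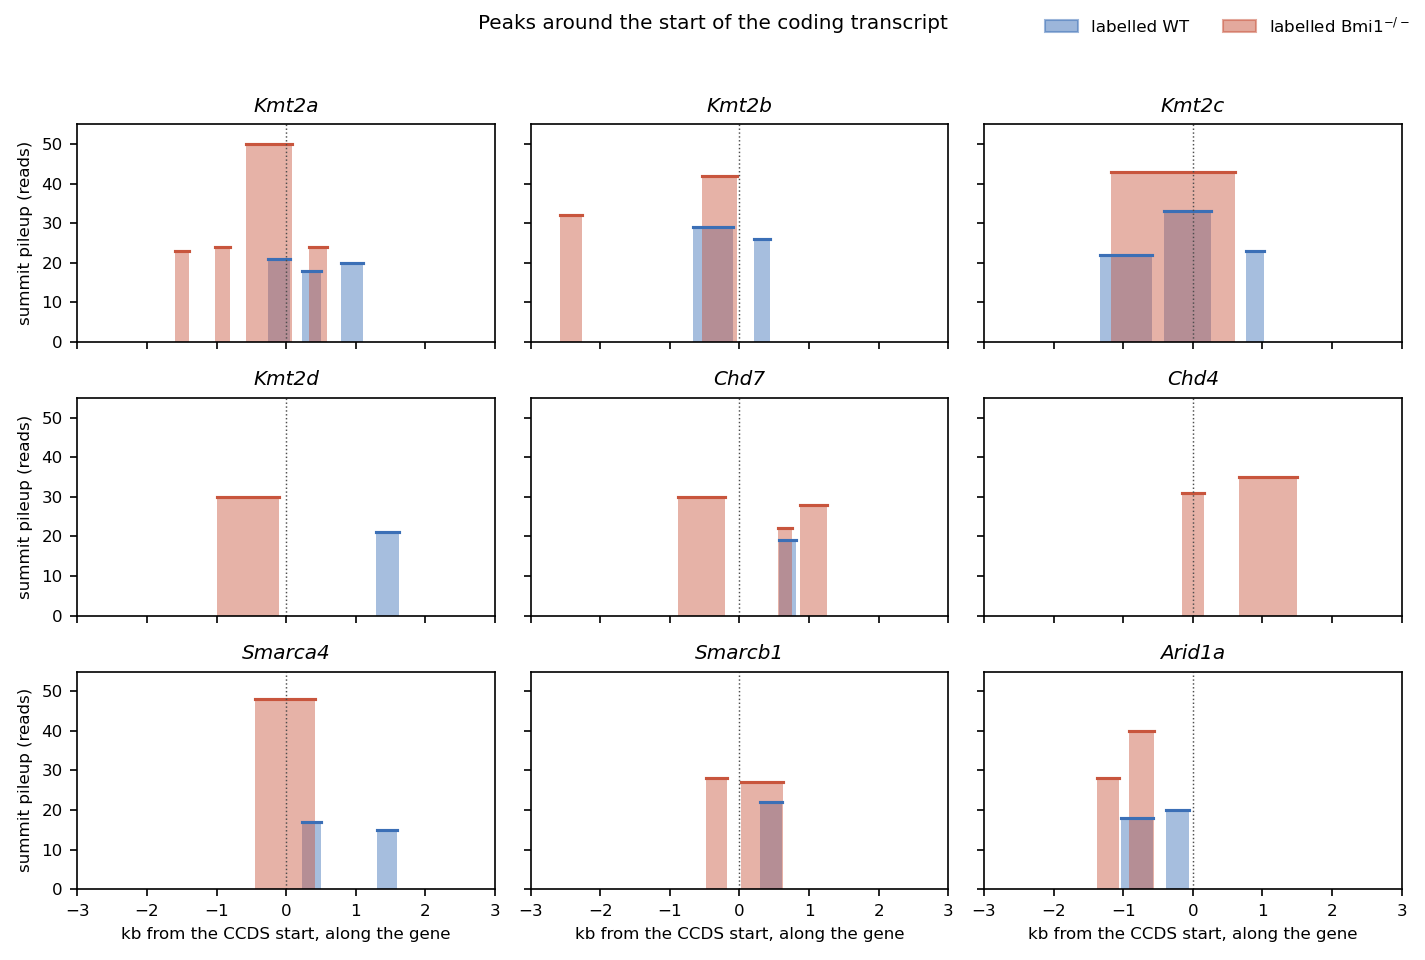
Peaks within 3 kb of the start of the coding transcript of each gene (dotted line), read along the gene. The width of a block is the peak and its height the reads at the summit, not the read profile. *Kmt2d* has 1 peak labelled WT in this window, downstream of the start, and *Chd4* has none.

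*Chd7* had the most peaks, 16 labelled WT and 17 labelled *Bmi1*-/-, of which 3 in each list were shared. Its strongest promoter peak labelled WT, chr4:8713187-8713480, lay in intron 1, 2993 bp from an internal start, with 27 reads over 7.06 (97.9th percentile), and had no partner in the other list. Its counterpart labelled *Bmi1*-/-, chr4:8690038-8690713, lay at the 5′ end of the gene, with 30 reads over 8.96 (94.96th percentile), and had no partner either. The ratio of 0.873 (0.502 to 1.53) therefore compares different places. In intron 1 a second peak labelled *Bmi1*-/-, chr4:8712394-8712743 (27 reads, 92.9th percentile), ended just before the strong peak labelled WT without touching it.

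The 3 shared places of *Chd7* were weak. Close to the 5′ end, chr4:8691483-8691727 labelled WT (19 reads) and chr4:8691474-8691681 labelled *Bmi1*-/- (22 reads) overlapped. Deep in intron 1, chr4:8738745-8738952 (15 reads, 5.49th percentile) met chr4:8738889-8739108 (17 reads, 6.15th percentile). Toward the 3′ end, chr4:8847473-8847720 (19 reads, 44.9th percentile) lay within chr4:8847318-8847821 (23 reads, 50.3rd percentile), with summits in introns 23 and 22. Each list also had strong peaks of its own. With the label *Bmi1*-/- a peak of 887 bp lay on exon 2, chr4:8751831-8752717 (27 reads, 92.6th percentile). With the label WT, chr4:8725031-8725347 (24 reads, 93.5th percentile) and chr4:8714550-8714825 (23 reads, 89.4th percentile) lay in intron 1.

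**Figure D3:**
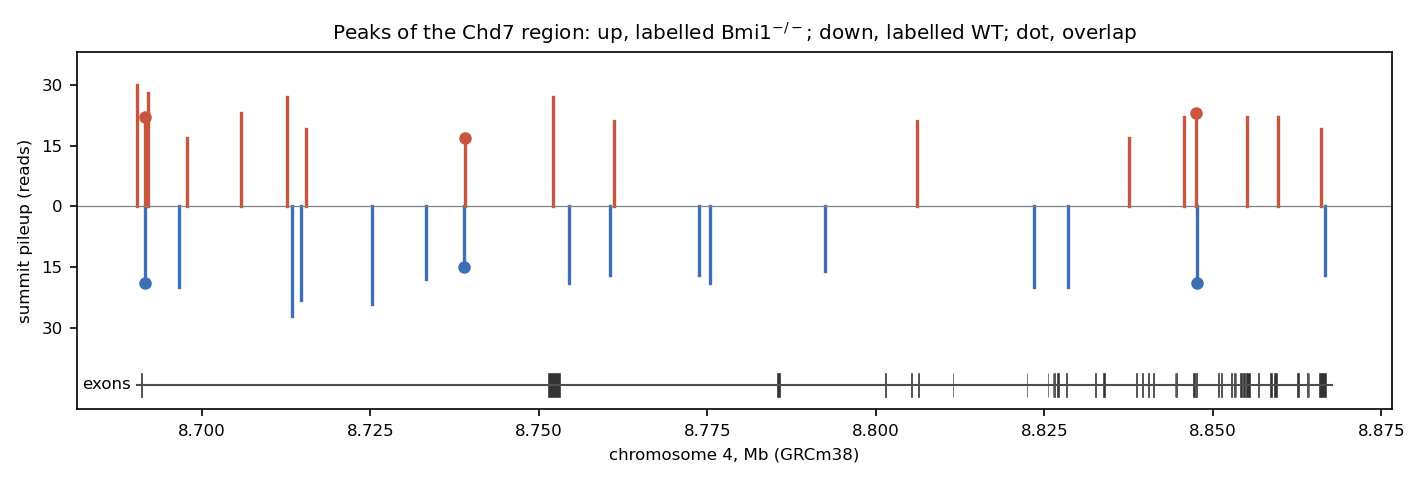
Summits of all *Chd7* peaks on chromosome 4 with the exons of the transcript with the longest coding sequence. Lines show reads at each summit, upward for the label *Bmi1*-/- and downward for the label WT, and dots mark the 3 shared places.

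*Chd4*, the ATPase of the repressive NuRD complex, had no peak labelled WT within 5 kb of its start. Peaks labelled *Bmi1*-/- covered the start itself, chr6:125095829-125096137, with 31 reads over 15.4 (37.5th percentile), and the 5′ untranslated region in exon 2, chr6:125096639-125097479, with 35 reads over 15.5 (74.8th percentile). The latter lay over *Mir7045*. Its strongest promoter peak labelled WT was chr6:125117171-125117486 in intron 25, near an internal start, with 18 reads over 6.34 (52.8th percentile). It was shared with chr6:125117111-125117361 labelled *Bmi1*-/-, which held 21 reads. The ratio of 1.53 (0.843 to 2.87) thus compares different places, and per local background it was 0.796. Of the peaks labelled WT without overlap, the strongest was chr6:125108429-125108669 in intron 16 (75.8th percentile), and another overlapped the small RNA gene *Gm23751*.

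Upstream of *Chd4*, 2 places were shared outside the promoter. The first was chr6:125088927-125089328 labelled WT (19 reads, 3.47th percentile) and chr6:125088618-125089250 labelled *Bmi1*-/- (32 reads over 12.5, 85.9th percentile). At the second, chr6:125090237-125090457 labelled WT was the stronger by rank (25 reads, 67.5th percentile) beside chr6:125089936-125090339 (26 reads, 24.6th percentile). When these sequences were read, a repeated word stood out. TATTATGGG or its complement occurred 20 times in the 10 kb upstream of *Chd4*, between chr6:125087443-125095925, more often than in the same interval of any other of the 21938 protein-coding genes, of which 5.20% held at least 1 copy. Each of the 2 overlapping peaks of the first place held 5 copies, whereas at the second place the peak labelled *Bmi1*-/- held 2 and the one labelled WT held 0. Among windows of 100 bases to each side of summits more than 3 kb from any TSS, 0.0601% labelled WT and 0.0843% labelled *Bmi1*-/- held the word. It was chosen after the sequences had been seen, and no factor is assigned to it. The sequences are shown because they carry the repeat, in lower case with TATTATGGG and, where present, GGAATG in capitals.

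Chd4 upstream, summit labelled WT, chr6:125088946-125089146, plus strand: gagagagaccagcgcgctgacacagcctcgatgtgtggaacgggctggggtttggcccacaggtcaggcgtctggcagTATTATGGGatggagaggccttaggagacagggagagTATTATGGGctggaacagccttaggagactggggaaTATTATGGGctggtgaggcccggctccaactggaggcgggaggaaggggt

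Chd4 upstream, second place, summit labelled Bmi1 KO, chr6:125089863-125090063, plus strand: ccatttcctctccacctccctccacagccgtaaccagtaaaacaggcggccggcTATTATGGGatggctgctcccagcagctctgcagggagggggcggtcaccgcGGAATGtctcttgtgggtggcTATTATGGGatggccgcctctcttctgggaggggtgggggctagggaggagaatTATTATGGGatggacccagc

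Among the SWI/SNF genes, *Smarca4* (BRG1), one of the 2 alternative ATPases of the complex, differed most in pileup at the strongest promoter peak. Its peak number was 6 in both lists. With the label WT the peak next to its start, chr9:21616402-21616667, held 17 reads over 6.66 (fold 2.35, 30.5th percentile). With the label *Bmi1*-/-, chr9:21615715-21616581 spanned the start with 48 reads over 10.3 (fold 4.32, −log10 q 13.0, 99.5th percentile). They overlapped, but their summits lay 409 bp apart and the one labelled *Bmi1*-/- fell outside the peak labelled WT. The ratio per library background, which thus compares different positions, was 2.22 (1.25 to 4.12), or 1.82 per local background. Away from the start the lists shared no *Smarca4* peak. The strongest of those were chr9:21611572-21611782, upstream and labelled WT (61.3rd percentile), and chr9:21633492-21633722 in intron 2 labelled *Bmi1*-/- (72.2nd). *Mir1946b* starts within 3 kb of the promoter peaks.

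*Arid1a*, a DNA-binding subunit of the canonical BAF form, had 2 promoter peaks labelled WT and 4 labelled *Bmi1*-/-. The stronger one labelled WT, chr4:133753662-133753999, lay 51 bp upstream of the start of the coding transcript with 20 reads over 7.56 (51.3rd percentile) and was not shared. A weaker one, chr4:133754180-133754638 (18 reads, 17.1st percentile), overlapped the strongest labelled *Bmi1*-/-, chr4:133754171-133754533, with 40 reads over 13.6 (−log10 q 5.11, 95.9th percentile). The ratio of the strongest peaks was 1.57 per library background (0.898 to 2.84) and 1.11 per local background. Upstream of the outermost start of the gene, chr4:133756921-133757427, with its centre 405 bp away, was labelled *Bmi1*-/- alone (35 reads, 90.2nd percentile). In intron 1, chr4:133729508-133730094 was the strongest peak labelled *Bmi1*-/- without overlap (26 reads, 90.6th percentile). At the 3′ end a shared place fell in the coding part of exon 20, chr4:133680828-133681097 labelled WT (19 reads, 65.8th percentile) and chr4:133680979-133681247 labelled *Bmi1*-/- (25 reads, 86.1st).

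*Smarcb1*, a core subunit, ranked alike in both lists. Its single peak labelled WT, chr10:75921007-75921318 in intron 1, held 22 reads over 7.04 (85.3rd percentile) and lay within chr10:75920992-75921595 labelled *Bmi1*-/- (27 reads over 9.90, 82.1st percentile). The strongest labelled *Bmi1*-/- was a neighbouring peak upstream of the start, chr10:75921798-75922104 (28 reads, 87.2nd percentile), without overlap. *Mmp11* starts within 3 kb of these peaks.

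Counted at the starts of transcripts with a consensus coding sequence (CCDS), a comparison added after seeing the data, a peak centre within 1 kb was found for 7 of 9 genes labelled WT and for 9 of 9 labelled *Bmi1*-/-. The background was 45.9% and 58.7% of the protein-coding genes with such a start. The 2 genes without one labelled WT were *Kmt2d* and *Chd4*. Within 500 bp the counts were 7 and 7, against 40.1% and 53.2%, and with a q-value under 0.05 within 1 kb they were 5 and 9, against 35.2% and 52.2%.

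RefSeq promoter windows of GRCm38.p6 were held for 7 of the 9 genes, 9 windows in all. *Chd7* and *Kmt2b* were not among them. The 250 bases before each start were rich in CpG, with 54.0% to 91.6% G and C and an observed to expected CpG ratio of 0.784 to 0.996. Over 32851 windows of the same length the medians were 52.4% and 0.374. GGGCGG, the letters of a GC box, occurred on either strand in 9 of 9 windows, against 32.7% of all windows, and 12 times in the *Kmt2c* window with overlapping matches counted. CCAAT was found in 1 window, of *Chd4*, against 33.8%. No window held CCGGAAG (6.91% of all windows), CACGTG (6.02%), TGACGT (6.47%), CGCATGCG (1.55%), ATGGCGGC (1.03%) or TATAAA (12.4%), which says only that these letters were absent there. TATTATGGG was in both *Chd4* windows and in 0.0822% of all windows. These 2 windows share chr6:125095913-125095980, which holds TATTATGGG and GGGCGG, so they are not separate sequences.

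The windows of the 2 genes with the highest percentiles labelled *Bmi1*-/-, of *Kmt2c*, and of the 2 genes that lacked a start peak labelled WT are shown 5′ to 3′ without annotated exons of the gene. Capitals mark GGGCGG and, in *Chd4*, TATTATGGG.

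Kmt2a promoter, chr9:44881297-44881539, minus strand: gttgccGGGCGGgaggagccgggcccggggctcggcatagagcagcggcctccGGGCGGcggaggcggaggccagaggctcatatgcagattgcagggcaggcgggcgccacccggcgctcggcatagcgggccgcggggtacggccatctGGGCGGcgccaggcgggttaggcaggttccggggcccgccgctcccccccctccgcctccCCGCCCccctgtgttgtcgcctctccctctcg

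Smarca4 promoter, chr9:21615919-21616168, plus strand: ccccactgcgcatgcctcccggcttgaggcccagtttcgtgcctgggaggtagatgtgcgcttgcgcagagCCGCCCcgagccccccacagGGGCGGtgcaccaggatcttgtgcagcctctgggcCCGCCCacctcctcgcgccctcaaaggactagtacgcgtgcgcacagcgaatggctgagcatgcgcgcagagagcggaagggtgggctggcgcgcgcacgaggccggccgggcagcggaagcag

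Kmt2c promoter, chr5:25498784-25499033, minus strand: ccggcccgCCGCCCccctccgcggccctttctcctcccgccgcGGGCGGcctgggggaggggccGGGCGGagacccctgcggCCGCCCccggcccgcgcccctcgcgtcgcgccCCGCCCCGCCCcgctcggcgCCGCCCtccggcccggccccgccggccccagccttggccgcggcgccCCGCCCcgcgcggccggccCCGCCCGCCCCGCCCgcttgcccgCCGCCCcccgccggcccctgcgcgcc

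Kmt2d promoter, chr15:98871206-98871455, minus strand: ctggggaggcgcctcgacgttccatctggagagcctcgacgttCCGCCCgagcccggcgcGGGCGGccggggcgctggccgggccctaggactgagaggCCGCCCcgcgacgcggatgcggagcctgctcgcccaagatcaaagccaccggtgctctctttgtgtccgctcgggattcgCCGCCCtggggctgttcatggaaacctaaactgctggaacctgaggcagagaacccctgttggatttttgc

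Chd4 promoter, chr6:125095731-125095980, plus strand: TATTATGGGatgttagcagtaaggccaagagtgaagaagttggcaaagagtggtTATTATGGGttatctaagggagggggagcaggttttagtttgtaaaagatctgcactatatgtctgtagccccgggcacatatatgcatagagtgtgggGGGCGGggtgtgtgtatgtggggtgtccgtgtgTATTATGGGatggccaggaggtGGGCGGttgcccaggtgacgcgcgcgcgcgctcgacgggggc

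In all 5 of these genes a peak labelled *Bmi1*-/- overlaps the printed bases, in *Kmt2d* and *Chd4* only in part. A peak labelled WT covers those of *Kmt2a* and *Kmt2c* and none overlaps those of the other 3. Outside promoters, CAGCTG was found once at the *Arid1a* exon 20 summit labelled WT, against 13.3% of distant summit windows, and GGAATG once at the second *Chd4* place labelled *Bmi1*-/-, against 11.01%. TGANTCA (5.62% labelled WT, 5.68% labelled *Bmi1*-/-) and ACAATGG (2.90%, 2.79%) were in none of the summit windows of the *Arid1a* and *Chd4* places.

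Other genes of the same or related complexes and families were compared as 4 lists, 69 genes in all, and all were matched. Of these, 64 had a promoter peak labelled WT and 68 labelled *Bmi1*-/-, and the strongest ranked higher with the label *Bmi1*-/- for 42 of 68 (61.8%), below the 68.6% of all genes. Their median percentiles were 90.8 and 95.1 and their median pileup ratio per library background was 1.06, as over all genes. Thus the median of the 9 genes labelled WT, 61.4, was lower than the pooled median of these other genes, whereas that labelled *Bmi1*-/- was close to it. The lists differed, and the COMPASS and trithorax methyltransferase genes had medians of 68.9 and 87.5. Those of the SWI/SNF subunit genes were 92.1 and 90.6, of the CHD and NuRD genes 93.8 and 98.0, and of the ISWI and INO80 genes 86.3 and 95.2.

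Among 17 COMPASS and trithorax methyltransferase genes, 16 had a promoter peak labelled WT and 17 labelled *Bmi1*-/-, with 12 ranking higher in the latter. *Rbbp5*, a core COMPASS subunit, had one with the label *Bmi1*-/- alone (22 reads). *Kdm6a*, a histone demethylase of the KMT2C and KMT2D complexes, ranked highest labelled WT (28 reads, 99.0th percentile, against 30 reads labelled *Bmi1*-/-). *Wdr82* ranked highest labelled *Bmi1*-/- (37 reads, 98.6th percentile, against 27 reads labelled WT). Of 23 SWI/SNF subunit genes, 21 and 23 had a promoter peak and 13 ranked higher with the label *Bmi1*-/-. *Smarcd1* and *Brd7* had theirs with the label *Bmi1*-/- alone (42 and 21 reads). *Dpf2* ranked highest labelled WT (27 reads, 98.4th percentile, against 41 reads labelled *Bmi1*-/-). *Actl6a* ranked highest labelled *Bmi1*-/- (51 reads, 99.4th percentile, against 23 reads labelled WT).

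All 18 CHD and NuRD genes had promoter peaks in both lists, and 9 ranked higher in each. *Hdac2*, a NuRD deacetylase, led the list labelled WT (36 reads, 99.7th percentile, against 38 reads labelled *Bmi1*-/-). *Chd2* led the list labelled *Bmi1*-/- (44 reads, 99.6th percentile, against 22 reads labelled WT). Of 11 ISWI and INO80 genes, 9 and 10 had a promoter peak and 8 of 10 ranked higher with the label *Bmi1*-/-. *Smarca1* had none in either list and *Ruvbl1* had one with the label *Bmi1*-/- alone (27 reads). *Srcap* led labelled WT (35 reads, 99.3rd percentile, against 44 reads labelled *Bmi1*-/-). *Ep400* led labelled *Bmi1*-/-, with 60 reads (99.6th percentile) against 21 labelled WT. Its ratio per library background was 2.25, and neither a counting interval nor the overlap of its peaks is given. A gene named for leading 1 list is favoured in that list, and the reads given are not divided by the library background.

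Promoter peaks were also counted at marker genes, beside 59.1% of all protein-coding genes labelled WT and 68.2% labelled *Bmi1*-/-. With so few genes per list these counts do not identify the tissue. Promoter peaks were found for 5 of 6 hair cell genes labelled WT and for 6 labelled *Bmi1*-/-, *Myo6* being strongest in both (27 and 44 reads), with *Otof* missing from the list labelled WT. Of these 6 genes, 3 ranked higher in each list, and the pileup ratio per library background exceeded 1 at *Myo6* alone of the 5 with a promoter peak in both (median 0.904). For supporting cells and sensory epithelium 5 of 6 genes had one in both lists, and *Sox10* had none. *Sox2* ranked highest (23 and 32 reads, 94.8th and 97.1st percentiles), although *Jag1* held more reads (27 and 44). Of this list 3 genes ranked higher with the label *Bmi1*-/- and 2 with the label WT, and the ratio exceeded 1 at 2 of 5 (median 0.993). Neuronal genes had promoter peaks in 3 and 4 of 5 cases, mesenchymal genes in 3 and 2 of 4, endothelial genes in 3 and 2 of 3 and blood genes in 1 and 0 of 4. Of these, *Nefl*, *Col1a1*, *Col1a2*, *Pecam1* and *Csf1r* had promoter peaks labelled WT alone, and *Neurod1*, *Snap25* and *Pou3f4* labelled *Bmi1*-/- alone. The strongest promoter peak ranked higher with the label *Bmi1*-/- for 4 of 5 neuronal, 1 of 4 mesenchymal and 2 of 3 endothelial genes, and with the label WT for the others of these lists and for the 1 blood gene that had one. The part of cell composition in the differences at the 9 genes was not tested.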

How the data were processed

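ATAC-seq peak lists of 2 samples, 1 per genotype, were grouped by the genotype in the sample labels. The submitters' processing notes name FastQC, BWA, MACS2, HOMER and the build mm10 (GRCm38), and versions were not given in the sources used here. The deposited fold values give the summit pileup over the local background, after 1 read is added to both. The deposited −log10 p and −log10 q are the peak caller's, made in each library separately. Whole pileups were solved from fold and −log10 p for 100% of peaks (−log10 p matched within 0.001), and solving, overlap and assignment were tested on simulated data. Peaks off chromosomes 1 to 19, X and Y (230 and 237) were left out. Exons and introns are numbered in the transcript with the longest coding sequence. Python 3.11.15, numpy, pandas and scipy were used. The genes and lists were chosen with earlier results of these data known. Genes named from the lists lacked a promoter peak in at least 1 list or ranked highest in one. Alternatives were stricter −log10 q, equal peak numbers, 1 kb promoters, 3 kb upstream, curated RefSeq transcripts, 50% reciprocal overlap and other scales of the pileup. Of the marker lists, 1 is not reported here.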

Additional observations from a re-analysis of the deposited data

How the results depend on the processing

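Stricter thresholds changed the counts most. With a q-value under 0.05 the genes had 26 peaks labelled WT and 44 labelled *Bmi1*-/-. The shares that overlapped were then 26.9% and 13.6%, against 30.4% and 22.1% in the main setting. Requiring −log10 q to be 5 or more left 1 and 4, a ratio of 4, and 1 and 4 genes kept a promoter peak. At that threshold 4 genes ranked higher with the label *Bmi1*-/-, but only *Kmt2c* kept a promoter peak in both lists. A gene with one in 1 list counts for that list by rule, so this count holds little beyond the presence of peaks. The 1 peak labelled WT overlapped, a share of 100%, and the share labelled *Bmi1*-/- was 25%. Fewer peaks pass these thresholds by construction. No overlap share over all genes is given at either threshold, and no share of genes with a promoter peak at the stricter one. The overlap shares and gene counts at these thresholds are thus not set against a background. A reciprocal overlap of 50% lowered the shared peaks to 12.5% labelled WT and 10.3% labelled *Bmi1*-/-, against 15% and 11.9% in all protein-coding genes. Dividing each pileup by its own local background turned the median ratio to 0.994, and the cause was not tested. With lists of equal length, 6 genes ranked higher with the label *Bmi1*-/- and the ratio of peak numbers was 0.982, within the interval around the main ratio of 1.21. No share over all genes is given at that length, so the 6 genes are not set against a background. Promoters of 1 kb, 3 kb upstream and curated RefSeq transcripts moved no count by more than 1.5 times and no ratio or share beyond its interval. Near CCDS starts, chosen after seeing the data, a q-value under 0.05 left 5 genes labelled WT and 9 labelled *Bmi1*-/-, against 35.2% and 52.2% of genes with such a start. No paired analysis was possible because each genotype has 1 library. With 1 library each and summits of 15 to 50 reads, pileup ratios up to 1.57 had counting intervals that included 1, and differences between libraries and between genotypes cannot be told apart.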
